A study of Homo sapiens with 6 samples.

Results

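Isolated ZIC2 regions are places on the chromosomes where the transcription factor ZIC2 was called bound and where no other called region lay within 300 kb on either side. They were taken from the joint set of 2 deposited lists, 1 from H1 cells without ZNF263 (KO) and 1 from wild-type H1 cells (WT), on chromosomes 1 to 22 and X. Of the 16040 different regions in this joint set, 722 were isolated (4.50%). Members were chosen by the measured positions of the regions, so the distances and the number of members are a description. Class (called in both lists, in KO alone or in WT alone) and width were not used to choose them. H1, also named WA01, is an established human embryonic stem cell line. The KO cells carry a Cas9 deletion of ZNF263 that the labels call homogeneous, and they were profiled in 2 anti-ZIC2 libraries and 1 normal rabbit IgG library. The unedited WT cells were profiled in the same way, with 2 anti-ZIC2 libraries and 1 IgG library. The labels do not say how many clones stand behind the KO cells or whether the replicates came from separate cultures. The assay was CUT&Tag, in which an antibody tethers a transposase to a bound protein and the transposase cuts and tags the DNA beside it.

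ZIC2 belongs to the ZIC family of zinc-finger proteins that control transcription, is active in pluripotent and early neural cells, and is needed for normal forebrain development in humans. Factors of this kind bind at promoters and at enhancers, which can act on a gene from a long distance. Human chromosomes alternate between gene-dense stretches and long gene-poor stretches, some of which are called gene deserts. ZNF263 is another zinc-finger protein that binds DNA. With no annotation of the build of the lists, the genes beside the isolated regions were not analysed here, and their DNA sequence is not printed.

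Each list gives only the chromosome, start and end of a region on hg19, without a height, a score or a read count. Depth is therefore unknown, there is no error between replicates, and no test between the genotypes was possible. All 93 isolated regions called in both lists had identical edges in the 2 lists, as did all 4105 shared regions of the joint set, so a shared region has 1 width and not 1 per genotype. Identical edges may mean that both lists were drawn from 1 joint set of regions by a rule that the sources used here do not give. Called in KO alone or in WT alone therefore means only that a region stands in that list and not in the other, whether it was not called or not selected there, and binding was not measured as lost. Intervals below are 95% intervals for counting error. They take each region as a separate observation, although neighbours are not independent.

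Most isolated regions were called in WT alone. Of the 722, 93 were called in both lists (12.9%, interval 10.5 to 15.5), 132 in KO alone (18.3%, 15.5 to 21.3) and 497 in WT alone (68.8%, 65.3 to 72.2). Over the whole joint set, 25.6% of regions were shared, 19.3% were KO-only and 55.1% were WT-only. The KO-only share of the isolated regions thus lay near that of all regions, while the shared part was smaller and the WT-only part larger.

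The remaining 15318 regions, those with a neighbour within 300 kb, were shared in 26.2% of cases (25.5 to 26.9). Isolated minus other regions gave a difference of -13.3 percentage points in the shared part (Newcombe interval -15.7 to -10.6). For the WT-only part the same difference was 14.4 points (10.9 to 17.8). For the KO-only part it was -1.11 points, with an interval from -3.84 to 1.94 that includes 0.

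The same counts can be read from each list. The KO list held 225 isolated regions, of which 41.3% were also in the WT list (34.8 to 48.1), against 57.5% of its other regions (56.3 to 58.6) and 57.0% of all its regions. The WT list held 590 isolated regions, of which 15.8% were also in the KO list (12.9 to 19.0), against 32.5% of its other regions (31.7 to 33.3) and 31.7% of all. There were 38.1 KO regions per 100 WT regions among the isolated and 56.6 per 100 among the others. By length, isolated regions covered 73.8 kb in the KO list and 154 kb in the WT list, or 47.9 KO per 100 WT, against 67.2 per 100 for the other regions. Isolation was judged in the joint set here. When each list was judged by itself, 953 KO regions and 851 WT regions were isolated, or 112 per 100. The KO list is the shorter one, and the lists were not compared at equal size.

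The shared part was smaller at each greater distance beyond 20 kb. It was 29.8% (28.2 to 31.5) for regions whose nearest neighbour lay 5 to 20 kb away and 18.0% (16.5 to 19.6) at 100 to 300 kb, just outside the rule. Among the isolated regions it was 16.0% (12.5 to 20.0, 62 of 388) at 300 to 500 kb. It was 9.96% (6.61 to 14.3, 26 of 261) at 500 to 1000 kb and 6.85% (2.26 to 15.3, 5 of 73) beyond 1 Mb. The isolated regions thus continued a slope that was already present at shorter distances, and the intervals on either side of 300 kb overlapped. The WT-only part was 49.5% under 5 kb, 64.9% at 300 to 500 kb and 75.3% beyond 1 Mb. The KO-only part was 21.0% under 5 kb and stayed between 17.2% and 19.6% in all wider classes of distance.

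**Figure D1:**
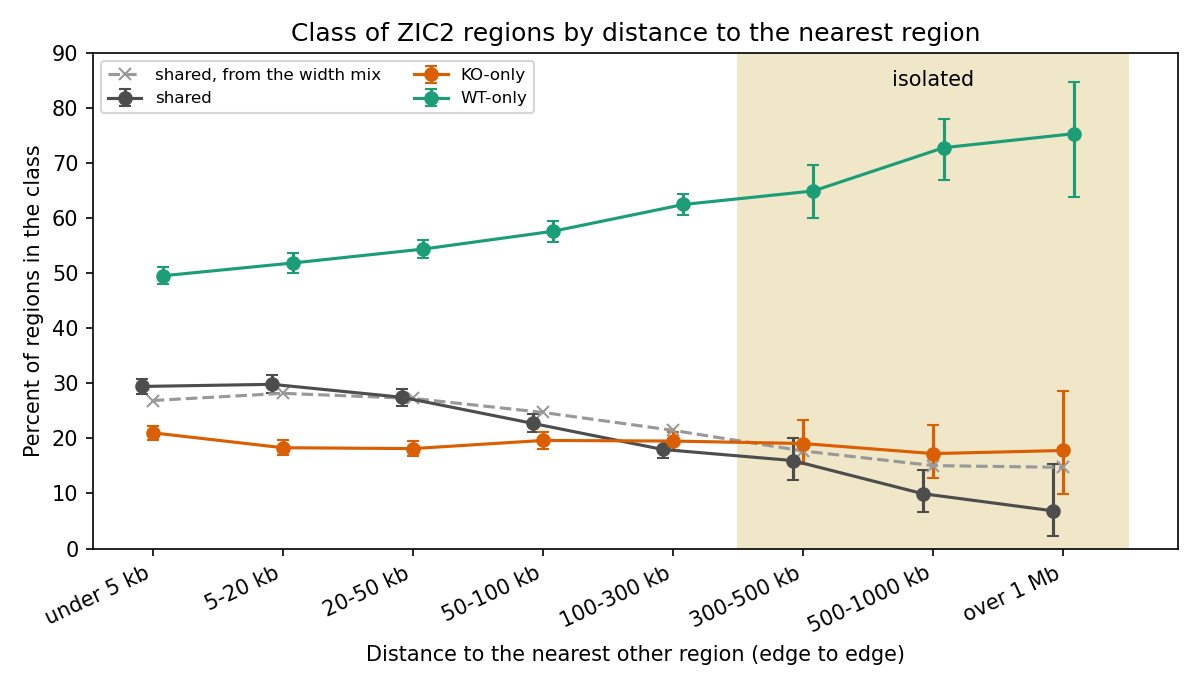
Percent of regions in each class (y axis) by distance to the nearest other region (x axis), over all 16040 regions. Points are shares and bars exact 95% binomial intervals. The dashed line is the shared part that the mix of widths in each distance class would give. The shared part is 29.4% under 5 kb and 6.85% beyond 1 Mb, while the KO-only part is 21.0% and 17.8% in the same classes.

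Isolated regions were narrow. Their median width was 150 bp, the smallest width in the lists, against 239 bp for the other regions, and 50.1% of them had exactly that width (46.4 to 53.8), against 29.4% of the others (28.7 to 30.2). The upper quartile was 283 bp for isolated and 421 bp for other regions. Width already fell with distance outside the rule. The median was 248 bp with the nearest neighbour 20 to 50 kb away, 192 bp at 100 to 300 kb and 162.5 bp at 300 to 500 kb. The part of exactly 150 bp was 28.2%, 39.9% and 46.4% in the same classes, so the isolated regions continued this slope. The 722 regions summed to 183 kb, which is 3.57% of the length of the joint set. Widths above 600 bp were reached by 49 isolated regions, or 6.79% (5.06 to 8.87), and by 12.2% of the others (11.7 to 12.7).

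Width differed by class among the isolated regions as it did elsewhere. Shared isolated regions had a median of 389 bp (quartiles 267 and 636 bp), against 460 bp for other shared regions. KO-only isolated regions had a median of 150 bp (upper quartile 263 bp), against 168 bp for other KO-only regions. WT-only isolated regions had a median of 150 bp as well (upper quartile 235 bp), against 185 bp for other WT-only regions. In each class the isolated regions were therefore the narrower ones by median. The minimum width was held by 2 of 93 shared, 72 of 132 KO-only and 288 of 497 WT-only isolated regions.

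Because narrow regions are rarely shared, the comparison was repeated at equal width. At 150 bp, 0.55% of isolated and 0.27% of other regions were shared. Above 200 and up to 300 bp it was 16.5% of isolated regions (10.1 to 24.8, n = 109) and 25.6% of the others (24.1 to 27.2). Above 400 and up to 600 bp it was 38.8% (25.2 to 53.8, n = 49) and 48.4% (46.4 to 50.5). Above 600 bp it was 53.1% (38.3 to 67.5, n = 49) and 67.4% (65.2 to 69.5). The point values were lower for isolated regions in all 5 width classes above 150 bp, but within each class the intervals overlapped.

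Weighted to the width mix of the isolated regions, the other regions were shared in 16.6% of cases, against 12.9% of isolated regions. The difference was then -3.68 points (-5.86 to -1.50), against -13.3 points without weighting. Weighted by chromosome alone it was -11.0 points (-13.5 to -8.43), and by chromosome and width together -2.95 points. Some classes by chromosome and width hold few isolated regions, and chromosome 19 has 1 in all. A class with a single isolated region adds no spread of its own, so an interval for that weighting would be too narrow and is not given. With only regions wider than 150 bp in the joint set, isolation was judged anew and 823 regions were isolated. In that different set the isolated minus other difference in the shared part was -11.2 points without weighting and -8.53 points at equal width. The change made by weighting was thus smaller there. For the WT-only part, weighting by width gave 7.92 points (4.59 to 11.3), and by chromosome and width 6.38 points, against 14.4 points without weighting. For the KO-only part, weighting by width gave -4.24 points (-7.15 to -1.33), and at 150 bp 19.9% of isolated regions (15.9 to 24.4) and 28.6% of other regions (27.3 to 30.0) were KO-only. WT-only regions made up 79.6% of isolated regions of 150 bp (75.0 to 83.6) and 71.1% of the others (69.8 to 72.4). Since a shared region's width is common to both lists, width is not a property measured apart from being called in both.

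**Figure D2:**
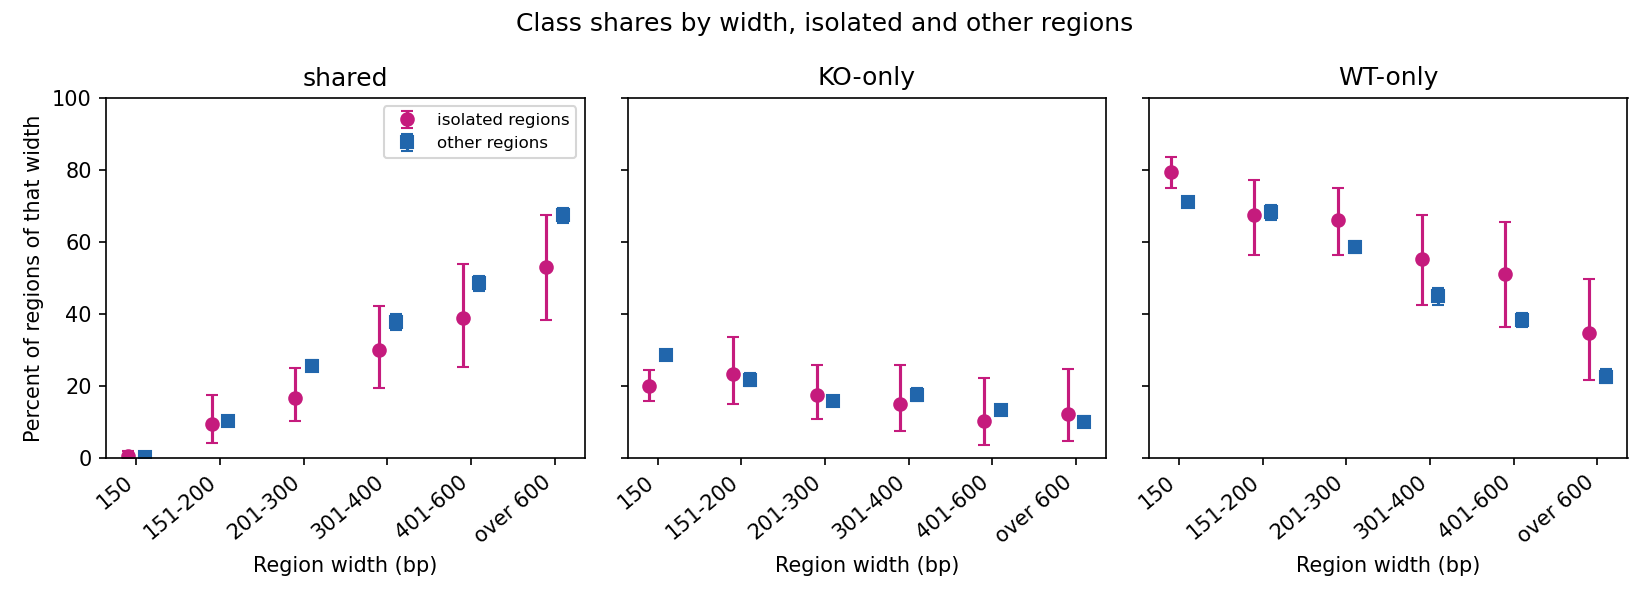
Percent of regions of each width that were shared, KO-only and WT-only (y axis), by region width in bp (x axis), for the 722 isolated regions (circles) and the 15318 other regions (squares). Bars are exact 95% binomial intervals. Among regions over 600 bp, 53.1% of isolated and 67.4% of other regions were shared.

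The isolated regions were spread unevenly over the chromosomes. Chromosome 2 held the most, 86 of its 1118 regions (7.69%, 6.20 to 9.41), and chromosomes 2 to 6 together held 321. Chromosome X had the greatest part of its own regions isolated, 49 of 236 (20.8%, 15.8 to 26.5), followed by chromosome 4 with 65 of 626 (10.4%, 8.11 to 13.0) and chromosome 13 with 25 of 315 (7.94%, 5.20 to 11.5). The intervals of chromosomes 4, 13 and 2 overlap, and that of X lies above them. X carried the fewest regions for its length, 1.56 per Mb, and chromosome 4 the next fewest, 3.29 per Mb. A low density makes isolation more frequent by construction.

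At the other end, chromosomes 17, 19 and 22 together held 9 isolated regions among 2435. Chromosome 19, known as the most gene-dense human chromosome, had 18.1 regions per Mb and 1 isolated region among 1067. On that chromosome the isolated region was WT-only and 150 bp wide. Chromosome 1, which has the most regions of all (1596), had 47 isolated ones (2.94%, 2.17 to 3.90).

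Shared isolated regions were found on 20 of the 23 chromosomes, but in small numbers. Chromosome 2 held 13 shared, 21 KO-only and 52 WT-only isolated regions. Chromosome X held 3 shared, 11 KO-only and 35 WT-only, chromosome 6 held 4, 9 and 38, and chromosome 12 held 2, 3 and 25 in the same order. On 17 of the 19 chromosomes with at least 10 isolated regions, the shared part was lower among isolated than among other regions. The exceptions were chromosome 13, with 24.0% of isolated and 16.6% of other regions shared, and chromosome 10, with 24.0% and 22.5%. Both rest on 6 shared regions among 25.

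**Figure D3:**
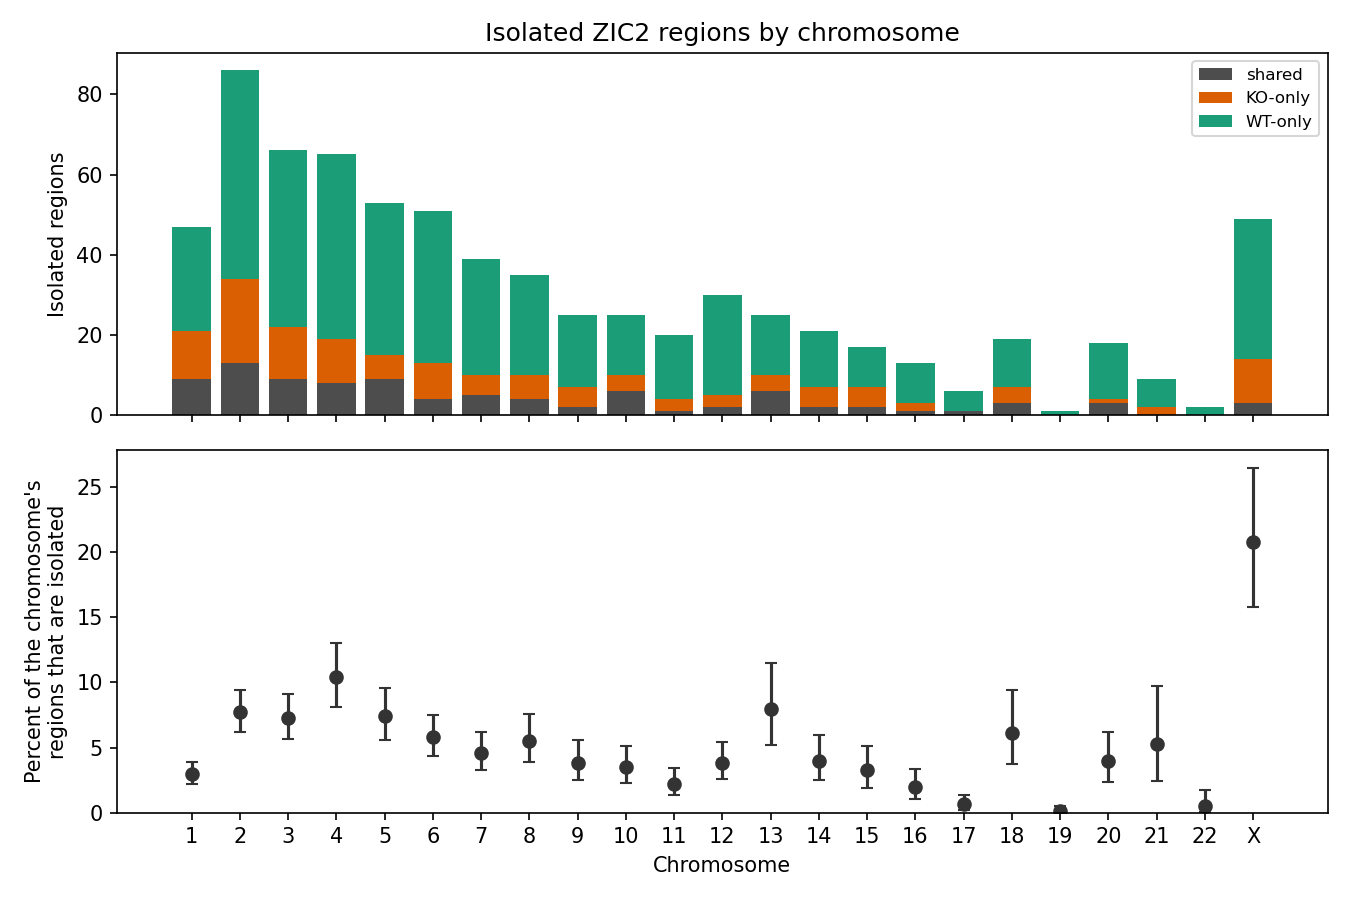
Number of isolated regions on each chromosome, stacked by class (upper y axis), and the percent of each chromosome's regions that were isolated, with exact 95% binomial intervals (lower y axis). Chromosome 2 has the tallest bar with 86 regions, and chromosome X has the highest percent at 20.8.

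Long gaps without a called region made up most of the span of the chromosomes, and isolated regions stood beside many of them. The median gap between neighbouring regions of the joint set was 61.6 kb, and 2325 gaps were longer than 300 kb. These long gaps were 14.5% of all gaps and 65.9% of the 2923 Mb between the first and last regions of the chromosomes. Repetitive and unassembled sequence was not taken out of the gaps or of the span. By the rule, an isolated region has a gap over 300 kb on each side where it has a neighbour. The counts that follow therefore describe the choice of members and are no separate finding. Isolated regions stood at an end of 1167 of the long gaps, 271 with an isolated region at both ends and 896 with one at 1 end. Those gaps alone summed to 1114 Mb, or 38.1% of the span. The remaining 1158 long gaps ran between regions that had a close neighbour on their other side.

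The nearest neighbour of an isolated region lay 477 kb away by median (quartiles 374 and 685 kb) and the farther one 943 kb away. The median distance to the nearest neighbour was 425 kb for shared, 473 kb for KO-only and 493 kb for WT-only isolated regions. In 73 cases the nearest neighbour was over 1 Mb away, and these comprised 5 shared, 13 KO-only and 55 WT-only regions. Chromosome X held 17 of the 73, of which 6 were KO-only, 11 WT-only and 0 shared. Chromosome 4 held 8 and chromosome 2 held 7. For 6 isolated regions there was a neighbour on 1 side only, because they were the first or last region of their chromosome.

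**Figure D4:**
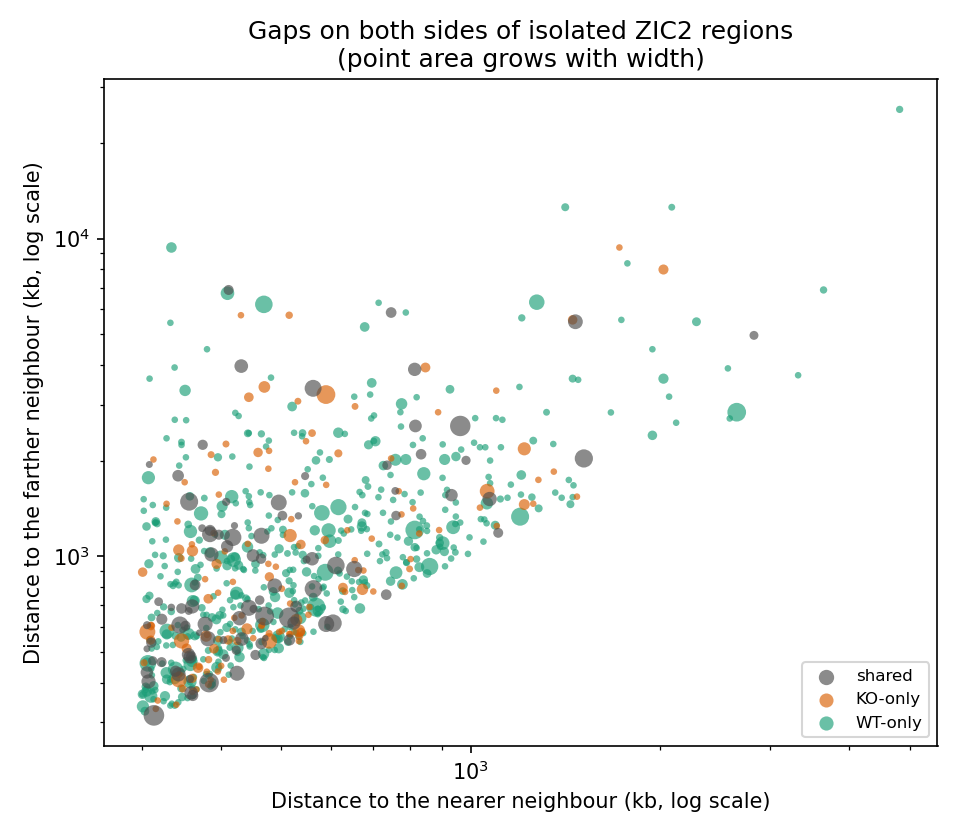
Distance to the nearer neighbour (x axis, kb, log scale) and to the farther neighbour (y axis, kb, log scale) for the 716 isolated regions with a neighbour on both sides. Each point is a region, coloured by class, and its area grows with width. Over all 722 isolated regions, the nearest neighbour is 425 kb away by median for shared, 473 kb for KO-only and 493 kb for WT-only regions. The point at the upper right is a WT-only region of 177 bp with gaps of 4818 and 25509 kb.

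The nearest neighbours were themselves mostly WT-only. The region nearest to an isolated one was shared in 15.4% of cases (12.8 to 18.2), KO-only in 17.0% and WT-only in 67.6%. For the other regions the nearest neighbour was shared in 26.6% of cases (25.9 to 27.3), KO-only in 19.5% and WT-only in 53.9%. Of the 93 shared isolated regions, 7 had a shared region as nearest neighbour (7.53%, 3.08 to 14.9). Since a region's nearest neighbour can itself be isolated, these counts repeat some of the same regions.

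Isolated regions also followed one another in sparse stretches. While 285 had no isolated region beside them and 210 came in pairs, 227 fell into 61 runs of 3 or more in a row. Because the neighbour of an isolated region already has a long gap on that side, runs arise in part by construction. How many runs to expect was not computed. Those runs spanned 215 Mb and held 24 shared, 42 KO-only and 161 WT-only regions. The shared part in the runs was 10.6% (6.89 to 15.3), against 14.0% (10.2 to 18.6) for the regions that stood alone, and the intervals overlap.

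By number of regions, the longest run was on chromosome X, from 4167647 to 14048217, where 8 regions in 9.88 Mb lay on average 1411 kb apart. It held 1 shared, 2 KO-only and 5 WT-only regions, none wider than 482 bp. The next by number was on chromosome 2 from 181544631 to 188375815, with 7 regions (1 shared, 2 KO-only and 4 WT-only) of at most 205 bp. A run of 6 on chromosome 13 spanned 11.4 Mb from 82448801 to 93886692, with 2 shared, 1 KO-only and 3 WT-only regions and a median width of 358 bp. Another run of 6, on chromosome 2 from 139115917 to 144602844, held 0 shared, 2 KO-only and 4 WT-only regions. The third run of this length, on chromosome 12 from 15343379 to 20522564, consisted of 1 shared and 5 WT-only regions. The widest region of a run was 482 bp on X, 205 bp in the first chromosome 2 stretch and 946 to 1022 bp in the other 3.

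A few isolated regions were wide. Among the 100 widest regions of the joint set, which were at least 1132 bp, 3 were isolated, beside 4.50% of all regions. In the joint set, 56 regions were wider than the widest isolated one. The widest isolated regions were shared. The first, on chromosome 4 from 77068549 to 77069753, was 1205 bp wide, with WT-only neighbours 315 kb and 313 kb away. The second, on chromosome 3 from 143689849 to 143691030 (1182 bp), had its neighbours 963 kb and 2571 kb away. The third, on chromosome 1 from 186344133 to 186345304 (1172 bp), stood 641 kb and 514 kb from its neighbours. The 10 widest shared isolated regions measured 874 to 1205 bp. Of these, the most remote was the region that opens the chromosome 13 run, from 82448801 to 82449746 (946 bp), with gaps of 1.51 and 2.03 Mb.

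Wide isolated regions of a single list were fewer. Of the 132 KO-only isolated regions 6 exceeded 600 bp (4.55%, 1.69 to 9.63), against 6.22% of all KO-only regions. For WT-only it was 17 of 497 (3.42%, 2.00 to 5.42), against 4.96% of all. Among shared regions it was 26 of 93 isolated ones (28.0%, 19.1 to 38.2), against 31.3% of all. The widest called in KO but not in WT lay on chromosome 2 from 140127087 to 140128090 (1004 bp), inside the second chromosome 2 run, with a gap of 589 kb on one side and 3.23 Mb on the other. It was followed by a region of 731 bp on chromosome 3, from 46036767 to 46037497. The third, 725 bp wide, was on chromosome 12 from 106133756 to 106134480. The next 2 were neighbours of each other on chromosome 2, with 541 kb between them. One was 694 bp wide, from 153573917 to 153574610, and the other 674 bp, from 153031926 to 153032599. Of the 5 widest KO-only isolated regions, 3 were on chromosome 2, which held 21 of all 132. A list of 5 is too short to read this as a pattern.

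Called in WT but not in KO, the widest lay on chromosome 12 from 16034927 to 16035948 (1022 bp), inside the chromosome 12 run. Next came 995 bp on chromosome 1, from 104067658 to 104068652, a region both wide and remote, with gaps of 2.65 and 2.84 Mb on its sides. It was followed by 994 bp on chromosome 3, at 86224416 to 86225409. The fourth, at 53105843 to 53106771 of chromosome 18, was 929 bp wide. The 10 widest of this class measured 707 to 1022 bp, against 434 to 1004 bp for the 10 widest KO-only regions. With 497 members the WT-only class offers more regions from which to take the widest.

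Of the isolated regions with no neighbour within 1 Mb, 75.3% were WT-only (63.9 to 84.7). That interval includes the 68.8% of all isolated regions, of which this group is a part. In the same group 57.5% were 150 bp wide, against 50.1% of all isolated regions, and no interval was computed for the group. The most remote was a region of 177 bp on chromosome 9 from 43490741 to 43490917, WT-only, with gaps of 4.82 and 25.5 Mb. Chromosome 9 carries a long stretch of repetitive and unassembled sequence about its centromere. The next were on chromosome X from 111066668 to 111066848 (181 bp, gaps of 3.65 and 6.89 Mb) and on chromosome 4 from 30838736 to 30838885 (150 bp, gaps of 3.71 and 3.32 Mb). Among shared regions the most remote was on chromosome 2 from 91816370 to 91816620 (251 bp, gaps of 2.83 and 4.96 Mb). Among KO-only regions it was on chromosome X from 30671272 to 30671582 (311 bp, gaps of 2.03 and 7.99 Mb).

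At the limit of the rule, the members with the closest neighbours lay 300.3 kb (chromosome 10, 150 bp, WT-only), 300.5 kb (chromosome 13, 281 bp, WT-only) and 300.7 kb (chromosome 6, 279 bp, KO-only) from another region. Just outside it were regions at 299.6 kb (chromosome 4, 150 bp, KO-only), 298.7 kb (chromosome 11, 262 bp, WT-only) and 298.2 kb (chromosome 5, 543 bp, shared). The 2 sets overlap in width and class.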

How the data were processed

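ZIC2 CUT&Tag regions of KO and WT H1 cells were read from 1 deposited list per genotype. The authors' files hold 3 columns, per the files themselves: chromosome, start and end. These are positions, not a score or count. The submitters' processing notes name Bowtie2, Picard and the build hg19. How peaks were called, with what threshold, how the IgG libraries entered and how replicates were joined is, in the sources used here, not given. Read depth is unknown.

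The 7208 KO and 12937 WT regions on 23 chromosomes were joined where they overlapped by at least 1 bp. Edge-to-edge distances were taken in this joint set, and regions with none within 300 kb were kept. Shares carry exact Clopper-Pearson 95% intervals, differences Newcombe intervals, and differences weighted to the isolated regions' width classes or chromosomes normal-approximation intervals. Alternatives were other distances, wider regions, joined regions, width deciles, a neighbour on both sides, autosomes, reciprocal overlap and each list alone. Python 3.11.15, pandas 2.3.3, scipy 1.17.1 and statsmodels 0.14.6 were used, and the routines were tested on simulated data. No p-values were computed. Coordinates are hg19, counted from 1. The 10 widest and 5 most remote isolated regions of each class, the 5 on each side of the limit and the 5 longest runs could be named. The members and lists were chosen with earlier results of these data known.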

Additional observations from a re-analysis of the deposited data

Results flagged for a closer look

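Outside chromosomes 1 to 22 and X, which the isolated regions were taken from, the KO list held 23 regions and the WT list 29. They drew attention as calls in data that the comparisons do not use. The IgG libraries were not analysed here, so no background level stands beside them.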

How the results depend on the processing

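The count of isolated regions was 3089 at a distance of 100 kb, 334 at 500 kb and 73 at 1 Mb. Their shared part was 16.8%, 9.28% and 6.85% at these distances, and KO regions per 100 WT regions numbered 44.6, 32.2 and 30. Median width was 180 bp at 100 kb. The isolated minus other difference in the shared part was -16.7 points at 500 kb and -18.8 points at 1 Mb, and at equal width mix it was -7.92 points at 1 Mb. With only regions wider than 150 bp, the shared part was 26.2%, KO regions per 100 WT numbered 50.6, the median width was 296 bp, and the difference was -11.2 points, or -8.53 points at equal width mix. By construction that setting removes the narrowest regions, few of which are shared. Isolation was judged anew among the remaining regions, of which 823 were isolated, so the members differ. Judged in its own list, the KO list held 112 isolated regions per 100 in the WT list. It has fewer regions, and whether that alone gives the ratio was not tested. The differences in the shared part kept their sign under each setting in which they were computed, which does not include the lists judged alone. Joining regions within 1 kb, requiring a neighbour on both sides and leaving out X kept each value within its interval, or the count within 1.5 times. With width deciles, used for the difference at equal width mix alone, that difference was -4.30 points. Requiring 50% reciprocal overlap changed nothing, since shared regions have identical edges, and so tests nothing. No paired analysis was possible because 1 list stands for the 2 replicates of each genotype, and no replicate could be left out. The lists hold no read counts, so a weak call and a missed one look alike.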
